A study of Mus musculus with 93 samples.

Results

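Srebf1, Mlxipl and 8 genes that serve the making of fatty acids from carbohydrate (Fasn, Acaca, Acly, Scd1, Elovl6, Me1, Pklr and Thrsp) were followed in 93 mouse livers. They were chosen by name: every probeset (a set of short probes for 1 transcript) that the array's annotation gives to 1 of these 10 genes was taken, which gave 18 of the table's 11463 probesets. All 18 passed the filter on low variation, after which 10349 probesets of 6234 genes were tested. The study asked how single dietary fatty acids change liver gene expression, and how much of that needs PPARα, the receptor through which fatty acids and fibrate drugs switch on fat oxidation.

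Each array came from 1 male mouse. WT mice were 129S1/SvImJ and PPARα -/- mice, in which the receptor is deleted in the whole body, were 129S4/SvJae, so the deletion and the difference between these substrains cannot be told apart. All mice were kept on a purified diet with olive oil before the experiment, fasted for 4 h and then given 400 µl by gavage, and livers were taken 6 h later. The gavage held a triglyceride of 1 fatty acid, or 1 of the PPARα agonists WY14643 and fenofibrate (4 mg, as a suspension of 10 mg per ml), or only carboxymethyl cellulose, the agonists' vehicle, which served as the control for all treatments. The first run held 56 arrays: controls, WY14643, fenofibrate, triolein (C18:1), trieicosapentaenoin (C20:5) and tridocosahexaenoin (C22:6). A later run of 37 arrays held its own controls, trilinolein (C18:2), trilinolenin (C18:3) and a triglyceride of C10:0, which the labels name tridecanoin. Groups had 5 mice, except WT controls of the first run with 3, and WT WY14643, PPARα -/- C20:5, both later control groups and WT C18:2 with 4. Ages were 12 to 20 weeks for first-run control and WY14643 mice and 8 to 24 weeks for the rest, so that age is not matched between the first-run controls and the triglyceride or fenofibrate mice. Values were compared within a run, since the mean signal of an array was 470.65 to 483.21 in the earlier and 582.96 to 603.9 in the later set.

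The liver makes fatty acids from glucose when insulin and sugar are plentiful. SREBP-1c, a product of Srebf1, and ChREBP, the product of Mlxipl, are the transcription factors that carry the insulin and the glucose signal to this pathway. Pklr, Acly and Me1 supply pyruvate, acetyl-CoA and NADPH, Acaca and Fasn build palmitate, Elovl6 lengthens it and Scd1 puts in a double bond, while Thrsp is a small nuclear protein that goes up and down with the pathway. Polyunsaturated fatty acids are known to lower SREBP-1c, and the transcription of Srebf1 is known to depend on the oxysterol receptor LXR.

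Promoter sequence is shown for 3 of the genes whose signal fell most in the livers below, as the 250 bases before a transcription start (RefSeq, GRCm38.p6, written 5′ to 3′ on the gene's strand). Srebf1 has several starts, and its most downstream one is given, at chr11:60210472-60210721 (minus strand). Fasn is at chr11:120824548-120824797 (minus strand) and Pklr, at its downstream start, is at chr3:89136373-89136622 (plus strand). Capitals mark every match, on either strand, to the motifs named after the sequences.
Srebf1: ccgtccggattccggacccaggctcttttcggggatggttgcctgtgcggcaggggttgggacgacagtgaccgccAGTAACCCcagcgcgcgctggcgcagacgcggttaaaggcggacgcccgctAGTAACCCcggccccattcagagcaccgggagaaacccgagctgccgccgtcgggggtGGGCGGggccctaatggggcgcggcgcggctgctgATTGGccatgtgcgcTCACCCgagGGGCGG
Fasn: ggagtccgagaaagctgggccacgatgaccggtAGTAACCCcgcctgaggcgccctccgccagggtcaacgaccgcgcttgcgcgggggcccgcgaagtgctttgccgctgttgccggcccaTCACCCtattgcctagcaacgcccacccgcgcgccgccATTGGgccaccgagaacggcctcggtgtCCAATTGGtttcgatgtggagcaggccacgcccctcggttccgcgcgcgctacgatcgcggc
Pklr: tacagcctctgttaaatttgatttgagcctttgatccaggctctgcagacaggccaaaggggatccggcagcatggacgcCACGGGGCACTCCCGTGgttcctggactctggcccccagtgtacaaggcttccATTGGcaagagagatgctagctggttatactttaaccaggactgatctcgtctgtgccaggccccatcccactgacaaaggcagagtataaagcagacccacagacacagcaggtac

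Of the 10 genes, 9 had promoters in the reference table, 14 in all, and Scd1 had none. GGGTTACT, a stretch of the known LXR response elements, was matched as AGTAACCC on the other strand at positions -174 to -167 and -123 to -116 from the Srebf1 start and -217 to -210 from the Fasn start, in no other of the 9 genes, and in 0.484% of all 32851 promoters of the same length. The carbohydrate response element pattern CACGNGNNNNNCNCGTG, the type of site that ChREBP binds, stood at -170 to -154 from the Pklr start and in 0.0396% of all promoters. Common motifs were also searched: CCAAT was in 33.8% of all promoters and in 6 of the 9 genes, GGGCGG in 32.7% and 4 genes, and TCACCC, the start of the classical sterol regulatory element, in 13.8% and 3 genes. CACGTG was in 6.02% of all promoters and in Mlxipl, and the fuller sterol element TCACNCCAC in 1.05% and again in Mlxipl. Exact copies of the direct repeats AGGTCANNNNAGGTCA and AGGTCANAGGTCA, idealised forms of LXR and PPAR sites, were in 0.0152% and 0.0335% of promoters and in 0 of the 14 windows. Repeats that depart from these letters were not searched, the surroundings of the GGGTTACT matches included, so the 0 does not show that such sites are absent. The motifs were picked in part after these sequences were read, and a match of letters is not a bound site.

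The livers were checked first. All 6 hepatocyte markers were in the table. Their summed signal per array was 61046 to 71969 in the first run and 90182 to 102278 in the later run. None of the 6 was called in any of the 16 comparisons with controls. Of 6 adipocyte markers only Fabp4 was in the table, and the other cell type lists are given beside the results they move with. Ppara itself had 3 probesets. One separated the genotypes fully, with log2 signals of 8.10 to 9.52 in 45 WT arrays and 5.94 to 7.93 in 48 PPARα -/- arrays, and the others overlapped. Where these probes lie relative to the deleted part of the gene is not given in the sources used here, so they check the labels only that far. Each array correlated with the mean of the rest of its group at 0.9445 to 0.9923. The lowest values were those of PPARα -/- C22:6 replicates 5 (0.9445) and 2 (0.9451), and the next lowest was 0.958.

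Wherever 1 of the 10 genes was called against its controls it was lower, mostly in PPARα -/- livers, and Srebf1 was called lower in both genotypes. A gene was called where the Benjamini-Hochberg adjusted p of limma was under 0.05, on its probeset of highest signal. Over the 8 treatments the 10 genes gave 80 tests in each genotype: in PPARα -/- livers 16 were called lower and 0 higher, and in WT livers 4 lower and 0 higher. Without PPARα, 6 of the 10 genes were called lower after C22:6, 4 after C18:3, 3 after C18:1, 2 after C10:0, 1 after C18:2, and 0 after C20:5, WY14643 and fenofibrate. In WT livers 1 gene each was called lower after WY14643, C22:6, C18:2 and C18:3.

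These counts are read against all 6234 genes. In PPARα -/- livers 9.21% of all genes were called lower after C22:6, 4.92% after C18:3, 0.449% after C18:1, 3.88% after C10:0, 0.112% after C18:2, 0.016% after C20:5 and 0% after WY14643 and fenofibrate. In WT livers 16.4% were called lower after WY14643, 7.17% after fenofibrate, 2.36% after C22:6, 1.22% after C18:3, 0.0802% after C18:2, 0.513% after C10:0, 0.0481% after C20:5 and 0% after C18:1. The shares called higher, where no member was found, were 6.37%, 5.41%, 0.834%, 3.16%, 0.192%, 0.016%, 0% and 0.0642% in PPARα -/- livers after C22:6, C18:3, C18:1, C10:0, C18:2, C20:5, WY14643 and fenofibrate. In WT livers they were 12.1% after WY14643, 7.12% after fenofibrate, 3.46% after C22:6, 2.29% after C18:3, 0.353% after C18:2, 1.07% after C10:0, 0.513% after C20:5 and 0% after C18:1. The 1 gene of 10 called lower in WT livers after WY14643 is thus a share below the background. At an unadjusted p under 0.05 from limma, where the adjusted test called none in PPARα -/- livers, 6 of the 10 genes passed after WY14643, 2 after C20:5 and 0 after fenofibrate, beside 408, 343 and 462 of the 6234 genes. In WT livers with no call, 1 of the 10 passed after C20:5 and 0 after fenofibrate, C18:1 and C10:0, beside 599, 1663, 511 and 892 of all genes. With arrays weighted by how well they fit (limma's array weights), 3 genes were called lower after WY14643 in PPARα -/- livers (Srebf1, Fasn and Acaca) and 1 after C20:5 (Srebf1), beside 1.72% and 0.0481% of all genes.

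The median change of the 10 genes shows the direction without a threshold. For PPARα -/- livers it was -1.09 on the log2 scale after C22:6, -0.91 after C18:1, -0.89 after C18:3 and -0.80 after WY14643, against medians of all genes between -0.06 and 0.01. It was smallest after C20:5, at -0.15. In WT livers the median of the 10 genes lay between -0.31 and 0.12, beside -0.08 to 0.0028 for all genes. Comparisons of 1 run and genotype share their control mice, so they are not independent of each other. In bulk liver, fewer cells of a type and less RNA per cell cannot be told apart.

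**Figure D1:**
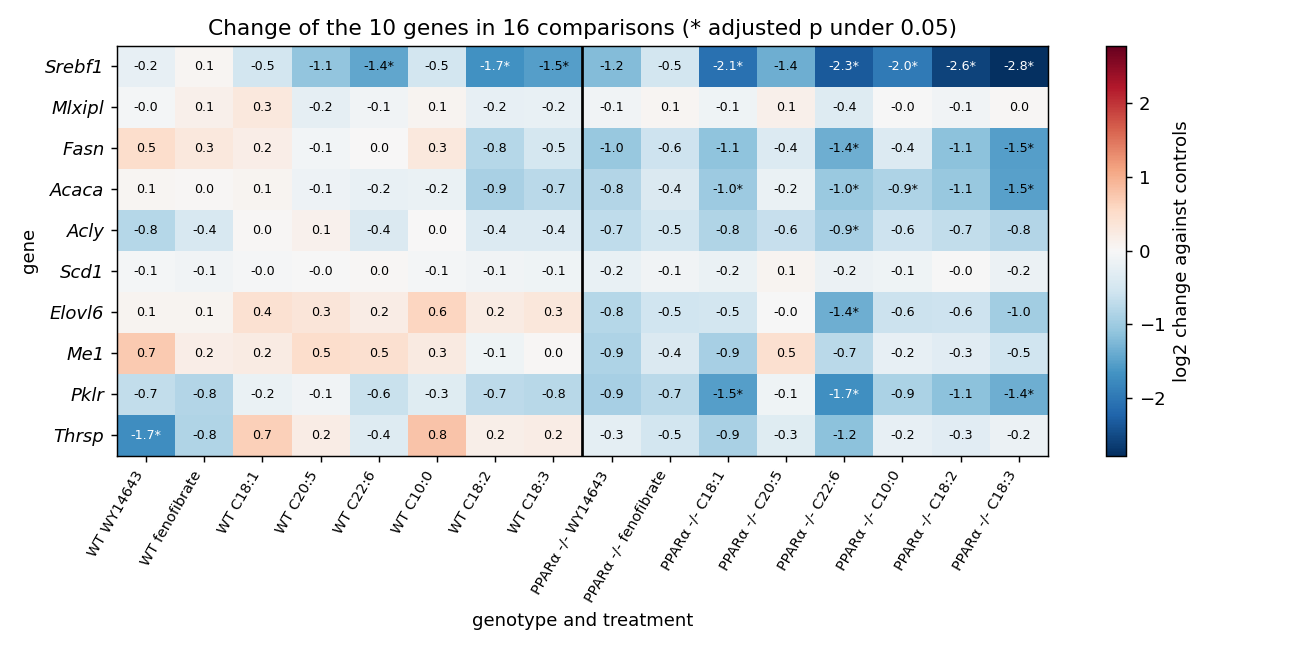
Log2 change of each of the 10 genes (rows) against the control livers of its run and genotype, for 8 treatments in WT (left of the line) and PPARα -/- livers (right); the number in each cell is the change and a star marks an adjusted p under 0.05. The Srebf1 row is the darkest, all 16 PPARα -/- stars are decreases, and the Mlxipl and Scd1 rows have no star.

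Srebf1, which encodes the regulator SREBP-1, was the gene of the 10 called most often, lower in 5 of 8 comparisons in PPARα -/- livers and in 3 of 8 in WT livers. The log2 signals in PPARα -/- controls of the later run were 8.57, 8.74, 8.87 and 7.46, and after C18:3 they were 5.92, 4.97, 5.65, 6.51 and 5.11. Every C18:3 liver was lower than every control, and Srebf1 fell to 14.6% of the control level, a log2 change of -2.78 (SE 0.40, adjusted p 1.12e-05). After C18:2 the livers gave 5.36, 6.29, 5.93, 5.02 and 6.59. These also lay below all controls, with a change of -2.57 (SE 0.40, adjusted p 0.00012) or 16.8% of control. C10:0 gave 6.34, 5.40, 7.49, 6.37 and 6.58, of which the third liver overlapped the lowest control, and the change was -1.97 (SE 0.41, adjusted p 0.00119). Srebf1 was thus called lower without PPARα after all 3 triglycerides of the later run, the medium-chain one included.

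In the first run the PPARα -/- controls had Srebf1 signals of 8.18, 8.42, 7.16, 8.15 and 8.37. After C22:6 they were 6.36, 5.13, 6.27, 6.22 and 4.63, and after C18:1 6.66, 6.65, 6.02, 5.52 and 5.08. Both groups lay wholly below the controls. Srebf1 fell by 2.33 on the log2 scale after C22:6 (SE 0.37, adjusted p 8.11e-05), to 19.9% of control, and by 2.07 after C18:1 (SE 0.37, adjusted p 0.00092), to 23.8%. The C20:5 livers, at 6.61, 7.02, 6.37 and 6.76, were also all below the controls. Their change of -1.37 (SE 0.40) had an adjusted p of 0.34 and was not called, and the same held for WY14643 at -1.21 (SE 0.37, adjusted p 0.35). Fenofibrate gave -0.51 (SE 0.37, adjusted p 0.83). With array weights the changes after C20:5 and WY14643 were called, at -1.46 (adjusted p 0.0288) and -1.30 (adjusted p 0.00622). All 5 calls of Srebf1 in PPARα -/- livers were kept when any 1 array of the comparison was left out. In a fit of only the groups compared, 2 of the 5 were kept (C18:1 and C18:3), and the adjusted p was 0.164 after C22:6, 0.0805 after C18:2 and 0.0506 after C10:0.

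Srebf1 was called lower in WT livers after 3 polyunsaturated fatty acids, C18:2, C18:3 and C22:6. WT controls of the later run had 8.83, 10.05, 10.04 and 9.75, and the C18:2 livers, 8.14, 8.06, 8.18 and 7.53, were all below them. The change was -1.69 (SE 0.42, adjusted p 0.0408), or 31.0% of control. C18:3 livers had 8.36, 7.51, 7.98, 8.94 and 7.84, of which 1 overlapped the lowest control, and a change of -1.54 (SE 0.40, adjusted p 0.0141). In the first run 3 WT controls had 10.11, 8.49 and 9.36. The C22:6 livers had 7.27, 7.63, 9.13, 7.86 and 7.50, with replicate 3 among the controls and the other 4 below them, with a change of -1.44 (SE 0.43, adjusted p 0.0312). C20:5 stood at -1.10 (SE 0.43, adjusted p 0.34), C18:1 and C10:0 both at -0.51, WY14643 at -0.22 and fenofibrate at 0.06, none of them called.

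The WT calls of Srebf1 were not all kept when arrays were left out. With 1 array left out at a time, the C18:2 call was kept in 1 of 8 cases (without WT control replicate 1 of the later run), with a highest adjusted p of 0.157. The C22:6 call was kept in 3 of 8 and lost without WT control replicate 1 or 3 or C22:6 replicate 1, 2 or 5 (change -1.05 to -1.86 over all 8 cases). The C18:3 call was kept in 6 of 9 and lost without WT control replicate 2 or 3 of the later run or C18:3 replicate 2, with a highest adjusted p of 0.0565. In a fit of only the groups compared none of these WT calls was kept, with an adjusted p of 0.186 after C22:6, 0.106 after C18:2 and 0.0977 after C18:3.

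**Figure D2:**
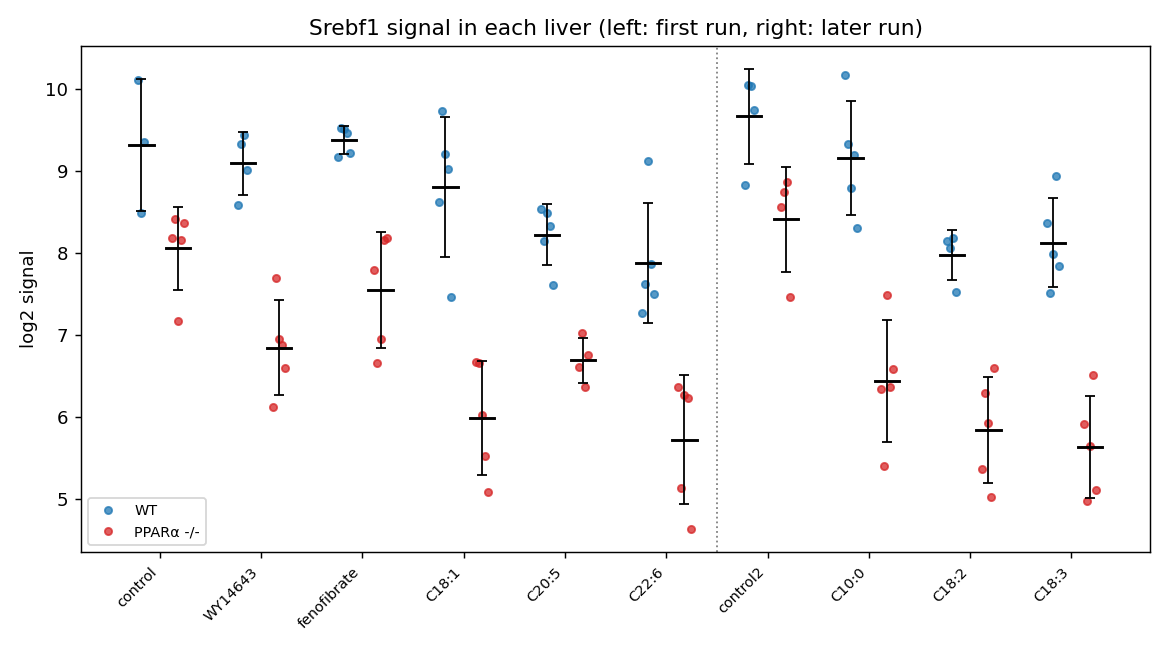
Log2 signal of Srebf1 in each of the 93 livers by treatment, WT in blue and PPARα -/- in red; the horizontal bar is the group mean, the vertical bar 1 SD, and the dotted line parts the first from the later run. In all 8 treatments and the first-run controls every PPARα -/- liver lies below every WT liver, while the later-run controls overlap. PPARα -/- livers given C18:3 lie between 4.97 and 6.51, all below their controls at 7.46 to 8.87.

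Control livers already differed in Srebf1. PPARα -/- controls were lower than WT controls by the same amount in both runs, -1.26 on the log2 scale (first run SE 0.43, adjusted p 0.0509; later run SE 0.42, adjusted p 0.0487), about 42% of the WT level in the later run. The first-run groups did not overlap but missed the threshold, and the later-run groups overlapped and passed it, a call kept in 2 of 8 cases when 1 array was left out (change -0.94 to -1.54, lost without WT control replicate 2, 3 or 4 or PPARα -/- control replicate 1, 2 or 4). Of the other 9 genes none was called between control livers in either run, where 9.72% and 7.89% of all genes were. Thrsp stood at 1.16 (SE 0.50, adjusted p 0.145) and 0.83 (SE 0.48, adjusted p 0.36) and Acly at 0.81 (SE 0.32, adjusted p 0.107) and 0.72 (SE 0.31, adjusted p 0.164) in PPARα -/- over WT controls of the first and later run.

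Mlxipl, which encodes the glucose-responsive factor ChREBP, was called in none of the 16 comparisons in the main fit, with 1 mean per group and no array left out. A fit that also took account of replicate numbers called Mlxipl lower in 1 of these, as given at the end. That fit also called it between treatments. In WT livers it was lower after C20:5 (-0.54) and C22:6 (-0.40) than after C18:1. In PPARα -/- livers it was lower after C22:6 than after C20:5 (-0.62). Its changes lay between -0.36 (PPARα -/- C22:6, SE 0.17, adjusted p 0.142) and 0.30 (WT C18:1, SE 0.20, adjusted p 0.78). The signal of Mlxipl in PPARα -/- C22:6 livers ran from 7.72 to 8.83 with a median of 7.86, and in their controls from 7.86 to 8.89 with a median of 8.46. The higher end of the C22:6 group was replicate 5 alone. Without it Mlxipl was called lower in this comparison, at -0.56 (adjusted p 0.0167), as it was without control replicate 3, at -0.49 (adjusted p 0.0427). Mlxipl varied little among mice of a group, with a median SD of 0.20 in WT and 0.24 in PPARα -/- groups, beside 0.56 and 0.65 for Srebf1.

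Fasn and Acaca encode the enzymes that build palmitate from acetyl-CoA, fatty acid synthase and acetyl-CoA carboxylase. Both were called lower after C22:6 and C18:3 in PPARα -/- livers, and Acaca also after C18:1 and C10:0, while neither was called in any WT comparison. Acaca in PPARα -/- controls of the later run had log2 signals of 7.55, 7.99, 9.24 and 7.53, and after C18:3 6.98, 6.14, 6.76, 6.55 and 6.35. All C18:3 livers were below all controls, and Acaca fell by 1.52 (SE 0.28, adjusted p 0.000293), a call kept whichever array was left out. First-run Acaca signals were 7.34, 7.57, 6.91, 7.36 and 8.59 in controls, 6.75, 5.95, 6.82, 6.53 and 6.56 after C22:6, and 6.91, 6.62, 6.50, 6.29 and 6.43 after C18:1. The treated livers lay at or below the lowest control. The change of Acaca was -1.03 after C22:6 (SE 0.27, adjusted p 0.00693) and -0.86 after C10:0 (SE 0.28, adjusted p 0.0424). After C18:1 Acaca fell by 1.00 (SE 0.27, adjusted p 0.0428). After C18:2 it stood at -1.05 (SE 0.28, adjusted p 0.0566) and was not called.

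Fasn in the same PPARα -/- livers followed Acaca. The later-run controls had 8.20, 8.44, 10.54 and 8.13 and the C18:3 livers 7.68, 7.10, 7.22, 7.25 and 7.18, so that all C18:3 livers were lower and the change was -1.54 (SE 0.37, adjusted p 0.00465). Control replicate 3 stood far above the other controls. Without it the Fasn change after C18:3 was -0.97 (adjusted p 0.0877) and was no longer called, and that of Acaca was -1.13 (adjusted p 0.00914) and still called. First-run Fasn signals were 8.33, 9.02, 7.83, 8.22 and 9.98 in controls and 7.76, 6.19, 6.87, 7.52 and 8.23 after C22:6, an overlap of 1 liver, with a change of -1.36 (SE 0.35, adjusted p 0.0068). C18:1 livers, at 7.45, 7.78, 7.68, 7.21 and 7.67, lay below all controls, but the change of -1.11 (SE 0.35) had an adjusted p of 0.0849.

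In WT livers the largest changes of these enzymes were after C18:2. Fasn stood at -0.78 (SE 0.39, adjusted p 0.44) and Acaca at -0.91 (SE 0.30, adjusted p 0.173), with all 4 C18:2 livers below all 4 controls for both genes. After C22:6 in WT, Fasn was at 0.01 (SE 0.40) and Acaca at -0.20 (SE 0.31). The SE of WT changes in the first run is larger than in PPARα -/- because only 3 WT controls were hybridised.

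**Figure D3:**
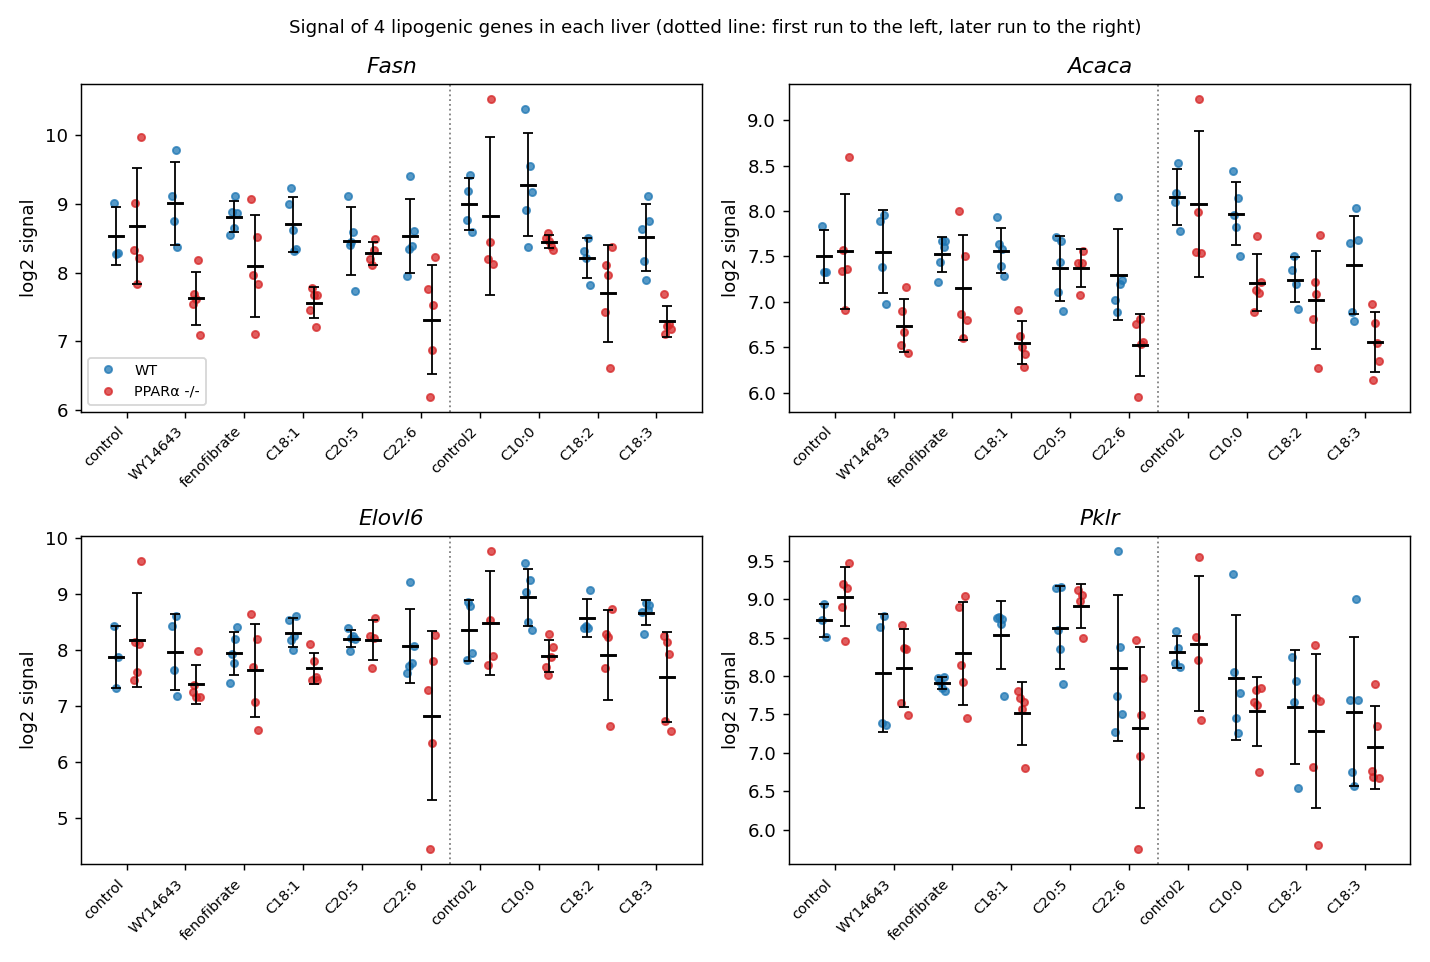
Log2 signal of Fasn, Acaca, Elovl6 and Pklr in each WT (blue) and PPARα -/- liver (red) by treatment, with the group mean (horizontal bar) and 1 SD (vertical bar); the dotted line parts the runs. All Fasn and Acaca points of PPARα -/- livers given C18:3 lie below all their controls, and 1 control liver of the later run is far above the rest for Fasn, at 10.54.

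Acly, the citrate lyase that supplies acetyl-CoA, and Elovl6, which elongates palmitate, were each called once, lower after C22:6 in PPARα -/- livers. Acly had control signals of 8.73, 9.91, 8.99, 9.17 and 10.54 and C22:6 signals of 8.61, 8.04, 8.32, 9.09 and 8.62, with a change of -0.93 (SE 0.28, adjusted p 0.0177). Its other probesets gave -1.05 and -1.28, also called. Elovl6 had 7.46, 8.13, 7.61, 8.10 and 9.59 in controls and 7.27, 4.44, 6.34, 7.80 and 8.26 after C22:6. The groups overlapped, and the change of -1.35 (SE 0.42, adjusted p 0.0216) drew much on replicate 2, at 4.44. Without that liver the change of Elovl6 was -0.76 (adjusted p 0.262). In WT livers Elovl6 was above 0 in all 8 comparisons, from 0.07 to 0.59, and in none was it called.

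Replicate 2 bore on the other C22:6 results in PPARα -/- livers too. It had the lowest signal of its group in 5 of the 10 genes, and over all probesets it was among the arrays least like the rest of their group (0.9451). With it left out, Srebf1 alone of the 6 genes kept its call, at -2.18 (adjusted p 0.0012). Fasn then stood at -1.08 (adjusted p 0.0699), Acaca at -0.89 (adjusted p 0.0543), Pklr at -1.31 (adjusted p 0.0569) and Acly at -0.81 (adjusted p 0.097). The directions did not change.

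Markers of other cells moved with the same comparison. In PPARα -/- C22:6 livers 3 of 6 Kupffer cell and macrophage markers (Clec4f, Vsig4 and Csf1r) were called higher, and the summed signal of the 6 was 1656.6 to 2874.4 against 320.5 to 2238.6 in controls. Fabp4 (97.9 to 566.2 against 33.6 to 155.5) and the endothelial marker Lyve1 were called higher too, and the erythroid marker Alas2 was called lower. Their part in the result was not tested. None of the 6 hepatocyte markers was called, with a summed signal of 61046 to 69815 after C22:6 and 65361 to 69284 in controls. In the other comparisons with calls of members, the marker calls were Stab2 higher after C18:3 and Col3a1 lower after C10:0 in PPARα -/- livers, and Fabp4 higher after WY14643 in WT livers.

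Scd1, the stearoyl-CoA desaturase, was the steadiest of the enzymes. Its probeset of highest signal lay at group means of 12.92 to 13.71 and changed by -0.20 to 0.08 over the 16 comparisons, with no call. A dimmer Scd1 probeset ranged from -0.69 (WY14643 in PPARα -/-, adjusted p 0.81) to 0.28 and was not called either. The bright probeset stood near the top of the scale, and whether its probes were saturated was not tested.

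Pklr, the liver pyruvate kinase, was called lower in PPARα -/- livers after C22:6, C18:1 and C18:3. First-run signals of Pklr were 8.91, 9.20, 8.46, 9.15 and 9.47 in controls, 7.81, 7.71, 7.57, 7.67 and 6.80 after C18:1 and 8.47, 5.74, 6.95, 7.49 and 7.98 after C22:6. All C18:1 livers were below all controls, and 1 C22:6 liver reached the lowest control. The changes were -1.52 after C18:1 (SE 0.42, adjusted p 0.0481) and -1.71 after C22:6 (SE 0.42, adjusted p 0.00432). In the later run Pklr had 8.51, 8.21, 9.55 and 7.42 in controls and 6.76, 6.69, 7.89, 7.35 and 6.67 after C18:3, a change of -1.35 (SE 0.44, adjusted p 0.0366). Both other Pklr probesets were called lower after C22:6 and C18:3, and 1 of them after C18:1 (-2.18, adjusted p 0.049). The C20:5 livers, at 9.12, 8.98, 9.06 and 8.50, were level with the controls, at -0.12 (SE 0.44, adjusted p 0.999). In WT livers Pklr was below 0 in all 8 comparisons, from -0.82 to -0.09, with no call.

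Several of these calls lay near the threshold and were lost when any of several livers was left out. The Pklr call after C18:1 was kept in 1 of 10 cases when 1 array was left out, that without control replicate 3 (change -1.35 to -1.67). That after C18:3 was kept in 3 of 9 and lost without control replicate 1, 2 or 3 or C18:3 replicate 1, 2 or 5, down to -0.97 without control replicate 3 (adjusted p 0.189). Acaca after C18:1 was kept in 3 of 10 and lost without control replicate 1, 2, 4 or 5 or C18:1 replicate 3, 4 or 5, with -0.75 without control replicate 5 (adjusted p 0.183). Acaca after C10:0 was kept in 3 of 9 and lost without control replicate 2 or 3 or C10:0 replicate 1, 2, 4 or 5, with -0.48 without control replicate 3 (adjusted p 0.335). With all arrays, this Acaca call was lost under median centring, quantile normalization within each run and a fit of only the groups compared. The Pklr call after C18:1 was lost without the filter on low variation and with a filter on signal (highest limma adjusted p 0.0515). Acly after C22:6 was also lost without control replicate 2 or 5, and Elovl6 without control replicate 5 or C22:6 replicate 3.

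Control mice differed widely over the pathway as a whole. Control replicate 5 of the first-run PPARα -/- group had the highest signal of its group in 8 of the 10 genes, 0.80 above the group mean on average, and replicate 3 the lowest in 8, at -0.75. Of the later-run PPARα -/- controls, replicate 3 was highest in 8 genes (0.95) and replicate 4 lowest in 8 (-0.72). WT controls differed too, by less on average. Of the 3 in the first run, replicate 1 was highest in 8 genes (0.36) and replicate 2 lowest in 8 (-0.34). In the later run replicate 3 was highest in 7 (0.33), and replicates 1 and 4 were lowest in 5 each (-0.41 and -0.13). Among treated mice the widest average deviations were those of PPARα -/- C22:6 replicate 2 (-0.82, lowest in 5 genes), WT C22:6 replicate 3 (0.81, highest in 7), WT C10:0 replicate 1 (0.74, highest in 8) and PPARα -/- C18:2 replicate 4 (-0.70, lowest in 6). WT WY14643 replicate 3 was highest of its group in all 10 genes, by 0.52 over the group mean on average. These mice were kept in all results unless stated.

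Thrsp, the Spot 14 protein, gave the only call against controls after a PPARα agonist when genes were read on their brightest probeset. WT controls had log2 signals of 11.75, 9.81 and 11.38 and WT WY14643 livers 10.00, 8.70, 10.19 and 8.14. The groups overlapped through 1 low control. Thrsp fell by 1.72 (SE 0.52, adjusted p 0.00898), to 30.3% of control, and its other probeset fell by 1.97 (adjusted p 0.00381) with no overlap. The call was kept in 4 of 7 cases when 1 array was left out, and lost without WT control replicate 1 or 3 or WY14643 replicate 4 (change -1.34 to -2.31). Fenofibrate gave -0.83 (SE 0.50, adjusted p 0.314). Without the receptor Thrsp stood at -0.28 after WY14643 (SE 0.43, adjusted p 0.98), and the difference between the genotypes, -1.45 (SE 0.68, adjusted p 0.147), was not called. After C22:6 in PPARα -/- livers the probesets of Thrsp disagreed in call but not in direction, at -1.15 (adjusted p 0.0613) and -1.35 (adjusted p 0.0333).

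Me1, the malic enzyme that makes NADPH, was the only member with a call in the upward direction, and only on its dimmer probeset. That probeset had 8.99, 9.06 and 8.64 in WT controls and 10.56, 10.05, 10.89 and 10.01 after WY14643, all above the controls, and rose by 1.48 (SE 0.43, adjusted p 0.00662). The brighter probeset of Me1 had 10.10, 10.16 and 9.83 in controls and 10.99, 10.51, 11.31 and 10.26 after WY14643. These livers too were all above the controls, but the change of 0.74 (SE 0.49) had an adjusted p of 0.296. Without the receptor Me1 stood at -0.85 after WY14643 on the brighter (adjusted p 0.77) and -0.84 on the dimmer probeset (adjusted p 0.70). The test of the difference between genotypes called the dimmer probeset after WY14643 (2.33, SE 0.56, adjusted p 0.00177) and after fenofibrate (1.86, SE 0.55, adjusted p 0.0244). The brighter one gave 1.59 (SE 0.64, adjusted p 0.08) and 0.60 (SE 0.62, adjusted p 0.63). Its difference after WY14643 was called with array weights (1.69) and in a fit that took account of replicate numbers (1.64). It was also called without PPARα -/- control replicate 3 (2.03), and the mean of both probesets was called at 1.96.

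**Figure D4:**
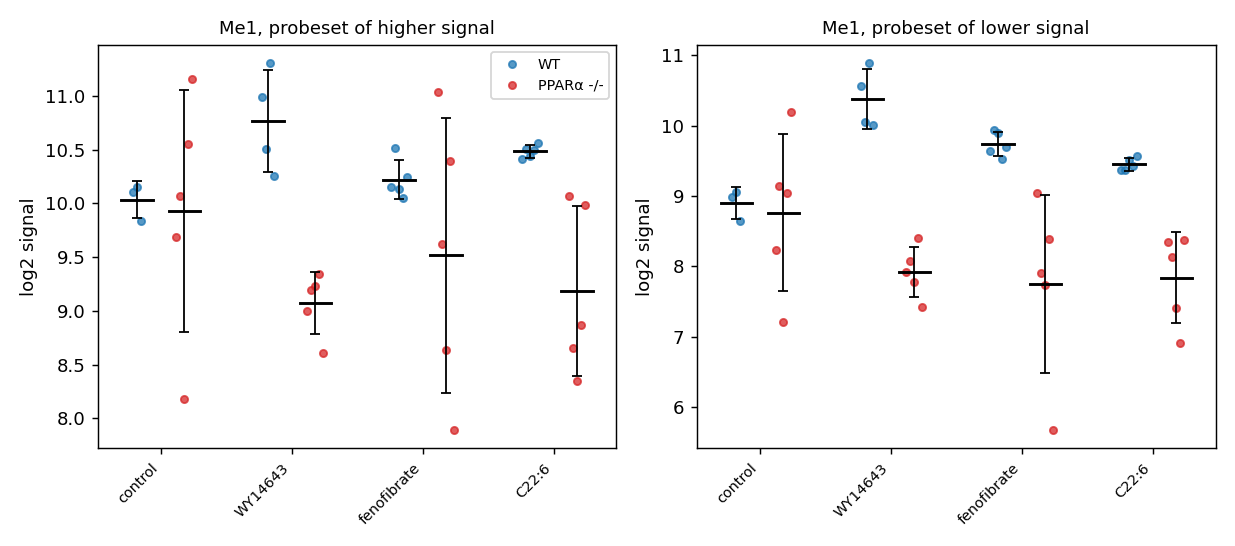
Log2 signal of both Me1 probesets in WT (blue) and PPARα -/- (red) livers after the vehicle, WY14643, fenofibrate or C22:6, with the group mean (horizontal bar) and 1 SD (vertical bar). On both probesets all WT WY14643 livers are above all WT controls, while PPARα -/- controls spread from 8.18 to 11.16 on the brighter probeset.

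Whether a change differed between the genotypes was tested as the change in WT minus the change in PPARα -/-. This test cannot part the loss of PPARα from the difference of substrain. Of the 10 genes, only Fasn after WY14643 was called, at 1.53 (SE 0.55, adjusted p 0.0444), where 17.6% of all genes were. Neither of its parts was called: Fasn stood at 0.48 in WT livers (9.12, 8.76, 9.79 and 8.37 against 9.02, 8.28 and 8.29 in controls) and at -1.05 in PPARα -/- livers (7.55, 7.68, 7.61, 8.19 and 7.10 against 8.33, 9.02, 7.83, 8.22 and 9.98). The call was kept in 7 of 17 cases when 1 array was left out, with a range of 1.20 to 1.77, and lost without WT control replicate 2 or 3, WT WY14643 replicate 1 or 3, PPARα -/- control replicate 2 or 5, or PPARα -/- WY14643 replicate 1, 2, 3 or 5. No member was called by limma for fenofibrate, C18:1, C20:5, C22:6, C18:2, C18:3 and C10:0, where 7.56%, 0%, 0.0321%, 3.35%, 0%, 1.04% and 0% of all genes were. At an unadjusted p under 0.05, 0, 6, 0, 3, 0, 3 and 1 of the 10 genes passed for these treatments, beside 1302, 551, 299, 1185, 345, 911 and 403 of the 6234 genes.

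The larger number of calls in PPARα -/- livers was thus not matched by called differences between the genotypes. For Srebf1 the difference was 1.56 after C18:1 (95% interval 0.42 to 2.70, adjusted p 0.55), 1.47 after C10:0 (0.32 to 2.61, adjusted p 0.70), 1.24 after C18:3 (0.12 to 2.36, adjusted p 0.30) and 0.89 after C22:6 (-0.25 to 2.03, adjusted p 0.43). These were all on the side of a larger decrease without PPARα. After C20:5 the WT and PPARα -/- changes of Srebf1 lay closer together, at -1.10 and -1.37. They were -1.69 and -2.57 after C18:2, -0.22 and -1.21 after WY14643 and 0.06 and -0.51 after fenofibrate. After C22:6 the differences of Elovl6 and Fasn were 1.55 (SE 0.64, adjusted p 0.175) and 1.37 (SE 0.54, adjusted p 0.148).

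**Figure D5:**
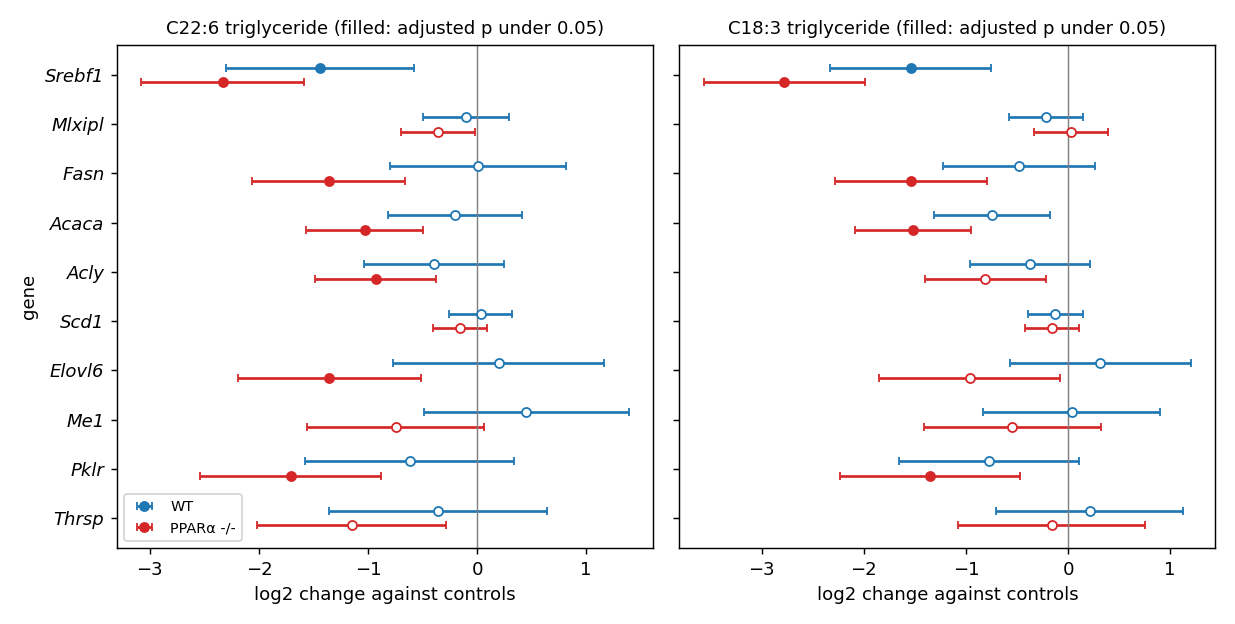
Log2 change against controls of the 10 genes after C22:6 (left) and C18:3 (right), in WT (blue) and PPARα -/- livers (red), with 95% intervals from the fit and filled points where the adjusted p is under 0.05. The intervals of WT and PPARα -/- overlap for Srebf1, at -1.44 and -2.33 after C22:6.

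Treatments were also compared directly, at the same gavage volume and time, in 14 pairs within a run and genotype, of which 12 were triglycerides that differ in chain length or number of double bonds and the other two were the agonists. C20:5 and C22:6, which differ by a longer chain and 1 more double bond in the latter, differed in 1 gene in PPARα -/- livers. Pklr was lower after C22:6 than after C20:5, at -1.59 (SE 0.44, 95% interval of the difference -2.47 to -0.71, adjusted p 0.0375), with all C22:6 livers below all C20:5 livers, and both other Pklr probesets were called too. The call was kept in 3 of 9 cases when 1 array was left out, and lost without any of the 4 C20:5 livers or without C22:6 replicate 2 or 3 (change -1.19 to -1.87). Srebf1 in the same pair gave -0.97 (95% interval -1.76 to -0.18, adjusted p 0.155), again with no overlap between the groups.

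No other pair gave a call for the 10 genes. Adding double bonds to a chain of the same length, C18:3 against C18:2, gave Srebf1 differences of 0.15 in WT (95% interval -0.64 to 0.94) and -0.21 in PPARα -/- livers (-0.95 to 0.54). Against the saturated medium-chain C10:0, Srebf1 stood at -1.18 after C18:2 in WT (-1.99 to -0.37, adjusted p 0.60), with no overlap between the groups, and at -1.03 after C18:3 (-1.80 to -0.27, adjusted p 0.72). The same differences in PPARα -/- livers were -0.60 (-1.36 to 0.17) and -0.81 (-1.57 to -0.04, adjusted p 0.29). C22:6 against C18:1 gave -0.93 in WT (-1.68 to -0.19, adjusted p 0.158) and -0.26 in PPARα -/- livers (-1.01 to 0.48). C20:5 against C18:1 gave -0.59 (-1.33 to 0.16) and 0.70 (-0.09 to 1.49). The agonists differed in Srebf1 by -0.28 in WT (-1.07 to 0.51) and -0.70 in PPARα -/- livers (-1.45 to 0.04), WY14643 minus fenofibrate.

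Few genes of the whole table differed in most pairs. In WT livers 1.43% did between C20:5 and C18:1, 4.32% between C22:6 and C18:1, 0.0321% between C22:6 and C20:5, 2.15% between the agonists, 0.016% between C18:2 and C10:0, 0.0321% between C18:3 and C10:0 and 0% between C18:3 and C18:2. The shares in PPARα -/- livers were 0.192%, 0.305%, 2.73%, 0.0481%, 0.0321%, 0.962% and 0% in the same order. An interval that holds 0 does not show that these fats act alike.

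The 10 genes moved together over the treated livers to unequal degrees. Over 77 treated livers, with each signal taken as its difference from the mean of its controls, Fasn and Acaca had the highest Pearson correlation, 0.88, and Srebf1 was closest to Acaca (0.80) and Fasn (0.72). Srebf1 then followed Pklr at 0.57, Elovl6 at 0.50, Acly at 0.48, Me1 at 0.47, Scd1 at 0.245, Mlxipl at 0.13 and Thrsp at 0.12. Within 38 WT and 39 PPARα -/- livers Srebf1 and Acaca gave 0.73 and 0.74, and Srebf1 and Fasn 0.76 and 0.48. For Elovl6 the values within WT and PPARα -/- livers were 0.16 and 0.34, for Acly 0.29 and 0.42 and for Me1 0.47 and 0.19. The 45 pairs had a median of 0.48 and a range of 0.02 to 0.88 when pooled. Within WT livers the median was 0.41 and the range -0.18 to 0.86, with 41 of 45 above 0, and within PPARα -/- livers 0.45 and 0.05 to 0.79. Differences between treatments are part of these values. The livers share arrays, runs and treatments, so these values describe the pattern and were not tested.

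Outside the 10, the genes whose treated signal was most like that of Srebf1 were Mtfp1 (0.76), which acts in mitochondrial fission, Acbd4 (0.75), an acyl-CoA binding protein of peroxisomes, Klhl5 (0.74), Carhsp1 (0.73) and Egln3 (0.73), an oxygen-sensing prolyl hydroxylase. Within 38 WT livers the 5 correlations were 0.54 to 0.63 and within 39 PPARα -/- livers 0.70 to 0.76. Acbd4 fell by 0.63 after C22:6 (adjusted p 0.00337) and by 0.82 after C18:3 (adjusted p 0.000364) in PPARα -/- livers, and Egln3 changed by -0.90 (adjusted p 0.0109) and -1.40 (adjusted p 0.000351). Mtfp1 stood at -0.27 in both comparisons and was not called. After C22:6 in WT livers, where Srebf1 was called lower, none of the 5 was called, with changes from -0.20 (Acbd4) to 0.27 (Mtfp1). The 5 genes were picked for following Srebf1 in these same livers, so their decreases are not separate evidence.

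The neighbours of the pathway were read from 5 gene lists. Of 12 other enzymes of fatty acid and triglyceride synthesis 10 were tested. Among PPARα -/- livers 3 of these were called lower after C22:6, 4 after C18:3, 2 each after C18:1 and C10:0 and 1 after C18:2, and 0 higher. The shares of all genes called lower were 9.21%, 4.92%, 0.449%, 3.88% and 0.112% in the same order. In WT livers 5 were called higher and 1 lower after WY14643, 2 higher and 1 lower after fenofibrate and 1 higher after C22:6. Of all genes 12.1% were called higher and 16.4% lower after WY14643, 7.12% and 7.17% after fenofibrate, and 3.46% higher after C22:6. The median change of the list was 0.43 after WY14643 in WT (all genes -0.08) and -0.21 after C22:6 and C18:3 in PPARα -/- livers (all genes -0.03 and -0.02).

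Gpam, the first enzyme of glycerolipid synthesis, rose by 1.00 after WY14643 (SE 0.19, adjusted p 2.39e-05) and 0.69 after fenofibrate in WT livers and fell by 0.57, 0.76 and 0.74 after C22:6, C18:2 and C18:3 in PPARα -/- livers. Its change differed between the genotypes for WY14643 (1.36, adjusted p 2.53e-05), fenofibrate (0.84, adjusted p 0.0192), C22:6 (1.05, adjusted p 0.00568) and C18:3 (0.96, adjusted p 0.0251). Mid1ip1, which is related to Thrsp and helps acetyl-CoA carboxylase polymerise, fell by 1.48 after WY14643 in WT livers (adjusted p 0.0101), as Thrsp did. It also fell in PPARα -/- livers, by 1.48 after C18:1, 1.66 after C22:6 and 1.99 after C18:3 (adjusted p 0.0339, 0.00279 and 0.000727), each time with no overlap with controls. Acsl5, which activates fatty acids, rose by 0.75 after WY14643 in WT and fell by 0.69, 0.49 and 0.55 after C18:1, C22:6 and C18:3 in PPARα -/- livers.

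Of 15 genes that supply acetyl-CoA, glycolytic intermediates and NADPH 9 were tested. Without PPARα, 5 were called lower after C22:6 and 2 each after C18:1 and C18:3, beside 9.21%, 0.449% and 4.92% of all genes. In WT livers 3 were called higher after WY14643, 2 after fenofibrate and 1 after C22:6, beside 12.1%, 7.12% and 3.46% of all genes. Acss2, which makes acetyl-CoA from acetate and is a known SREBP target, changed by -1.63, -1.72 and -1.40 after C18:1, C22:6 and C18:3 in PPARα -/- livers (adjusted p 0.0215, 0.0027 and 0.0208). Idh1, a source of cytosolic NADPH, rose by 0.78 after WY14643 and 0.45 after C22:6 in WT livers and fell by 0.46, 0.35 and 0.39 after C18:1, C22:6 and C18:3 in PPARα -/- livers. The change of Idh1 differed between the genotypes after C22:6 by 0.80 (adjusted p 0.000733). Gpd1, which makes glycerol 3-phosphate, rose by 0.99 after WY14643 in WT and was lower in PPARα -/- than in WT controls, at -0.90 and -0.97 in the first and later run.

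Of 8 genes of SREBP processing 5 were tested. Insig1, a retention protein of SREBP and a SREBP target, fell by 0.92 after C22:6 in PPARα -/- livers (adjusted p 0.0307), and Scap, the SREBP escort protein, by 0.48 (adjusted p 0.00355). Insig2, the other retention protein, rose by 1.23 after C18:3 (adjusted p 0.00905) and 1.13 after C10:0 (adjusted p 0.0235). The list thus had 2 genes called lower after C22:6 and 1 higher each after C18:3 and C10:0 in PPARα -/- livers. The shares of all genes were 9.21% lower, 5.41% higher and 3.16% higher. No gene of the list was called after any treatment in WT livers. There the shares of all genes called lower ran from 0% after C18:1 to 16.4% after WY14643. With 5 genes tested, the 0 cannot be told from these shares. Insig1 was higher in PPARα -/- than in WT controls of the first run by 1.08 (adjusted p 0.0375).

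Of 8 partners and targets of ChREBP 7 were tested. Txnip, a glucose-responsive ChREBP target, rose by 1.24 after both C20:5 and C22:6 and by 1.12 after fenofibrate in WT livers. Fgf21, a fasting hormone that both ChREBP and PPARα drive, rose by 2.64 after WY14643, 2.29 after fenofibrate, 1.70 after C22:6, 2.09 after C18:2 and 2.13 after C18:3 in WT livers, and was lower in PPARα -/- than in WT controls, at -3.19 and -3.42 in the first and later run. G6pc, the glucose 6-phosphatase, fell by 1.79 after C20:5 (adjusted p 0.00492) and 1.07 after C22:6 in PPARα -/- livers, so that C20:5, which gave no call among the 10 genes, gave 1 here. The list held 1 gene lower after each agonist in WT livers and 1 higher after C10:0 in PPARα -/- livers besides. The shares of all genes were 16.4% lower after WY14643, 7.17% lower after fenofibrate and 3.16% higher after C10:0 in these comparisons.

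Of 9 genes of LXR and its targets 8 were tested. The sterol exporters Abcg5 and Abcg8 fell by 1.00 and 1.04 after WY14643 and both by 0.91 after C18:3 in WT livers, and were lower in PPARα -/- than in WT controls of the first run, at -1.59 and -1.54. Lpcat3, which puts polyunsaturated chains into phospholipids, rose by 0.90 after WY14643 and 0.71 after fenofibrate in WT livers and fell by 0.62 after C22:6 and 0.48 after C10:0 in PPARα -/- livers. The LXR list had 2 genes called lower after C22:6 and 0 after C18:3 in PPARα -/- livers, with medians of 0.07 and -0.03. Of all genes 9.21% and 4.92% were called lower there. In WT livers 2 of the list were called lower after WY14643, 2 after C18:3 and 1 after C18:2. The shares of all genes called lower were 16.4%, 1.22% and 0.0802%. Of the 8, 3 were called lower in PPARα -/- controls of the first run and 4 of the later, with 0 higher. Between these controls 9.72% and 7.89% of all genes were called in either direction. The list medians were -0.39 and -0.46 (all genes 0.01 and 0.02).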

How the data were processed

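Total RNA of 93 mouse livers was hybridised to Affymetrix Mouse Genome 430 2.0 arrays, 1 per mouse. The authors made the deposited values, intensities on a linear scale, with GC-RMA (GCRMA 2.20, per the submitters' notes) after normalization between arrays, and kept probesets that varied. Here log2 of these intensities was used. After 51 control probesets were left out, probesets with an inter-quartile range of at least 0.25 over 83 arrays (all but C10:0) were tested, 10349 in all. limma 3.58.1 in R 4.3.3 fitted 1 mean per group to the 83 arrays, and to all 93 for C10:0. Benjamini-Hochberg adjustment ran over every probeset tested in a comparison, and p-values measure the spread between mice. A gene took the value of its probeset of highest mean signal, and all 10 genes are named. From each of 5 lists the 3 genes called most often are named, and the 5 genes most like Srebf1, together with the genes that only serve as cell markers. Members and lists were chosen with earlier results of these data known, and motifs in part after the promoters were read. Probeset names come from the platform annotation. The number of arrays limits the precision. The fit was tested on simulated data.

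Mice of a run share replicate numbers in the labels, which do not say what a number stands for. Deviations of same-numbered mice correlated above 0.1 in all pairs in 1 of 16 comparisons (WY14643 in PPARα -/-, 0.11 to 0.30). Leaving out arrays, filters, normalization, weights and a replicate block were tried as alternatives.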

Additional observations from a re-analysis of the deposited data

Results flagged for a closer look

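Single mice stood apart from their group in 21 of the 190 groups of 4 or 5 mice examined (10 genes by 19 groups), by the gap to the nearest mouse over the range of the group. That is 11.1%, and 11 were the lowest and 10 the highest of their group. For a single group chance gives about 1 in 20. The 10 genes were read in the same mice and move together, so the groups are not independent and an excess over chance was not tested. All values are log2 signals. In PPARα -/- controls of the first run replicate 3 was low in Srebf1 (7.16) and Scd1 (12.68). In PPARα -/- controls of the later run replicate 3 was high in Fasn (10.54) and replicate 4 low in Scd1 (12.92), and among WT controls of that run replicate 1 was low in Thrsp (10.10). WT C22:6 replicate 3 was high in Acaca (8.16), Acly (9.58) and Elovl6 (9.21). WT C18:2 replicate 4 was high in Elovl6 (9.07) and low in Me1 (9.89) and Thrsp (10.99).

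The other mice were apart in single genes or in single groups. They were PPARα -/- C22:6 replicate 5, high in Mlxipl (8.83), PPARα -/- C18:3 replicate 1, high in Fasn (7.68), and PPARα -/- WY14643 replicate 4, high in Elovl6 (7.99). WT C20:5 replicate 1 was high in Acly (9.90) and replicate 5 high in Thrsp (11.58), WT WY14643 replicate 4 was low in Scd1 (12.96), and WT C18:3 replicate 2 was low in Elovl6 (8.29). In Pklr, WT C18:1 replicate 5 (7.74), PPARα -/- C18:1 replicate 5 (6.80) and PPARα -/- C10:0 replicate 4 (6.75) were low.

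The change of Fasn after WY14643 differed between WT and PPARα -/- livers by 1.53 on the log2 scale in the test of that difference (adjusted p 0.0444).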

How the results depend on the processing

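No result changed direction past a threshold under any alternative. As reported, 4 tests were called lower in WT and 16 in PPARα -/- livers, 0 higher, with 1 difference between genotypes in the change, 1 between control livers and 1 between treatments. Fitting only the groups compared gave 1 lower in WT, 4 in PPARα -/-, 0 genotype differences, 0 between controls and 3 between treatments. The 4 were Srebf1 and Pklr after C18:1 and Srebf1 and Acaca after C18:3, and the WT call was Pklr after fenofibrate (-0.82), which was not called before. A raw p under 0.01, the study's rule, gave 26 lower in PPARα -/-, 2 genotype differences, 2 between controls and 13 between treatments. Array weights gave 6 lower in WT, 20 in PPARα -/-, 3 genotype differences, 2 between controls and 5 between treatments. New lower calls with these weights were Acly after WY14643 (-1.03) and Srebf1 after C20:5 (-1.23) in WT livers, and Srebf1 (-1.30), Fasn (-0.96) and Acaca (-0.78) after WY14643, Srebf1 after C20:5 (-1.46) and Fasn (-1.03) and Me1 (-1.11) after C18:1 in PPARα -/- livers, while Acly and Elovl6 after C22:6 were lost (adjusted p 0.0926 and 0.0647). The difference between controls was 0 without a filter, with a filter on signal and with all 93 arrays in 1 fit, and 2 with a stricter filter, an intensity trend, median centring or the mean of all probesets. Quantile normalization within runs gave 0 genotype differences and 2 between controls. Taking any probeset gave 1 higher in WT (Me1) and 3 genotype differences, and the mean of probesets 2. The replicate block gave 2 lower in WT, 17 in PPARα -/-, 2 genotype differences and 4 between treatments. With this replicate block Srebf1 in WT was no longer called after C22:6 (-1.26, adjusted p 0.0963) and C18:2 (-1.69, adjusted p 0.0509). It added Mlxipl after C22:6 in PPARα -/- livers (-0.36, adjusted p 0.0301) and the Mlxipl differences between treatments given above. That block lay within a genotype, so for control livers a replicate block across genotypes was added after seeing the data. It gave 2 calls between controls, Srebf1 in the later run (-1.26, adjusted p 0.0496) and Mlxipl in the first (-0.49, adjusted p 0.0104). With 1 array left out the counts ran from 2 to 5 lower in WT, 12 to 22 in PPARα -/-, 0 to 2 genotype differences, 0 to 2 between controls and 0 to 3 between treatments, and stayed at 0 higher. The causes were not tested.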
